A study of Mus musculus with 12 samples.

Results

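The AP-1 and EGR immediate-early factors described here are 10 mouse genes, Fos, Fosb, Fosl2, Jun, Junb, Jund, Atf3, Egr1, Egr2 and Ier3. They were followed in bone marrow-derived dendritic cells (DC) over 24 h of treatment with poly(I:C), a man-made double-stranded RNA that cells sense much as they sense viral RNA. The genes were taken by name, and every probe set that the array annotation assigns to a single gene of the list was used. This gave 14 of the 45101 probe sets on the Affymetrix Mouse 430 2.0 array, for 10 of the 18193 genes that a probe set names alone. Fosl2, Jun, Jund and Egr2 each had more than 1 probe set. Of the 14 probe sets, 12 were tested because their mean signal reached 78.4, the median over the array. The only Fosb probe set and a minor Jund probe set fell below that limit and are given as values.

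The samples were DC taken before poly(I:C) (0 h) or after 1, 3, 6, 12 or 24 h with it, with 1 array per time in each of 2 experiments and 12 arrays in all. All groups share the C57BL/6 strain, 6 days of culture with GM-CSF and, per the study's methods, selection of the cells for CD11c and female donors. The labels give an age of 3 to 4 months and, in the growth protocol, 8 to 10 weeks. They give 2.5 μg/ml poly(I:C) and 10 ng/ml GM-CSF, where the study's methods give higher amounts of both. Each experiment used the marrow of 1 mouse, so n = 2 mice at every time, and precision is limited by this small number of arrays. Untreated cells were not followed past 0 h, so an effect of poly(I:C) and an effect of time in culture cannot be told apart. In these bulk samples, fewer cells of a type and less RNA per cell cannot be told apart either.

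AP-1 is a dimer of basic leucine zipper proteins, most often a FOS with a JUN family subunit, that binds DNA at the TPA response element, and with ATF partners at the cyclic AMP response element (CRE). The EGR proteins are zinc finger factors that bind GC-rich sites. Genes of both families are classic immediate-early genes. Signals that reach the cell surface or its sensors act through MAP kinases on factors already present, such as serum response factor (SRF) with its ternary complex partners, and the transcripts rise within minutes to an hour without new protein synthesis and usually decay quickly. In DC and macrophages, AP-1 factors act beside NF-κB and interferon regulatory factors at cytokine genes. The first array after treatment was at 1 h, so an earlier and shorter rise was not measured.

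The promoter sequence directly before the transcription start is shown for 5 of the genes whose signals are followed below, since SRF binds the CArG box and CREB, ATF and AP-1 dimers bind the CRE, whose core is TGACG. Each run holds the 150 bases before a RefSeq start on GRCm38.p6, 5′ to 3′ on the strand of the gene. Capitals mark a CArG box or a TGACG core on either strand (CGTCA is its reverse complement), and a run with no capitals holds neither.
Fos, chr12:85473740-85473889, plus strand: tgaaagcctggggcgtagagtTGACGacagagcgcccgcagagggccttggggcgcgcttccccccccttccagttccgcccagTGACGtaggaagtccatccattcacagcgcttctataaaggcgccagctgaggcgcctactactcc
Junb, chr8:84978749-84978898, minus strand: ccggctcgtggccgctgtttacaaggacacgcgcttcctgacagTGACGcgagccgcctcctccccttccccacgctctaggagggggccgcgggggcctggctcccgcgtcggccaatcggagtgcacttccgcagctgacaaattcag
Atf3, chr1:191183334-191183483, minus strand: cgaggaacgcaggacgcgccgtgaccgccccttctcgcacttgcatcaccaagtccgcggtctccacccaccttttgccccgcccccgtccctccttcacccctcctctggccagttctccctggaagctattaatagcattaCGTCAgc
Egr2, chr10:67537719-67537868, plus strand: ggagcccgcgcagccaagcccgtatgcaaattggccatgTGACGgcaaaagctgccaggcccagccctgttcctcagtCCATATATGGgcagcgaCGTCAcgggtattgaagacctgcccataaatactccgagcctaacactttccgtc
Ier3, chr17:35821563-35821712, plus strand: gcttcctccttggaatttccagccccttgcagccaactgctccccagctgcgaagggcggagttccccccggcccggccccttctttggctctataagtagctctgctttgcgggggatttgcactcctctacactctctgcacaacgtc
The Fos window held TGACG at 129 to 125 and at 66 to 62 bases before the start, Junb held it at 106 to 102, and Atf3 held its reverse complement at 7 to 3. The Egr2 window shown held a CArG box at 72 to 63 bases before the start, with a TGACG core on either side of it. The windows of other Egr2 starts differed. The one at chr10:67535349-67535498 held neither, and the one at chr10:67537416-67537565 held a CArG box but no TGACG core. Of the 10 genes, 9 were searched, leaving out Egr1, over 13 windows because Egr2 has several annotated starts. Bases farther than 150 before a start were not searched, so a site there would be missed. The TGACG core was found in 5 genes (Fos, Fosb, Junb, Atf3 and Egr2) and the CArG box in 1 (Egr2). The full CRE (TGACGTCA), the TPA response element and the EGR site (GCGTGGGCG) were found in none, and the ETS core (CCGGAA) was found in 1. Among 32851 promoter windows of the same length, 13.3% held the TGACG core, 0.916% the CArG box, 1.36% the CRE, 2.84% the TPA response element, 0.426% the EGR site and 9.23% the ETS core. The motifs overlap in part, since every CRE holds the TGACG core.

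**Figure D1:**
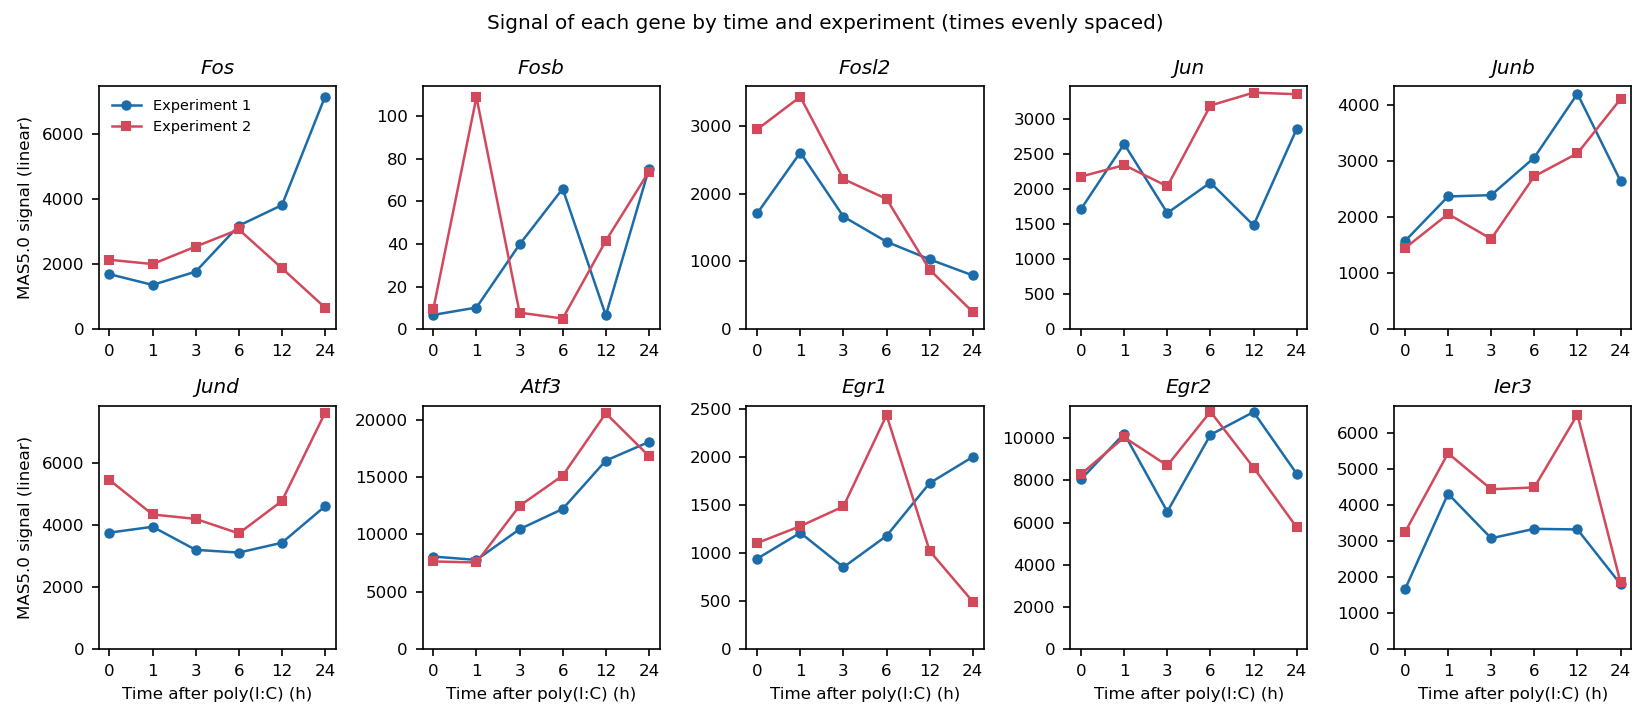
MAS5.0 signal on a linear axis against time after poly(I:C) for the main probe set of each gene, with 1 point per array and 1 line per experiment (n = 2, times evenly spaced). Atf3 and Junb ended above 0 h in both experiments but did not rise at every step. Ier3 was highest at 1 h or 12 h, and Fos and Egr1 went opposite ways in the 2 experiments at 24 h.

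Signals are the authors' MAS5.0 values, in which each array was scaled to a trimmed mean of 500. Fold changes are differences of log2(signal + 16) fitted over all 12 arrays with limma, with a term for the experiment, and a call of higher or lower means that the Benjamini-Hochberg adjusted p was under 0.05 over the 22519 tested probe sets. On this scale the change of a dim gene is understated. A change between times is given as the later time minus the earlier, with its standard error (SE).

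At 1 h, the time at which immediate-early transcripts are usually sought, Ier3 stood out and the classic factors did not. Ier3 encodes a short-lived stress-induced protein linked to cell survival. Its signal was 4317 in experiment 1 and 5443 in experiment 2 at 1 h, against 1657 and 3247 at 0 h. The 1 h arrays lay above both 0 h arrays. The fitted change was 1.06 ± 0.23 on the log2 scale (SE), with a 95% interval of 0.55 to 1.56, and only 0.546% of the tested probe sets had a greater rise. The unadjusted p was 0.000856 and the limma adjusted p was 0.765, so Ier3 was not called. With only the 4 arrays of 0 h and 1 h in the fit its adjusted p was 0.00364 (limma). That was the only setting tried in which a member was called at 1 h, and the calls over all tested probe sets in it are not given.

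Fos, the founding member of AP-1, was at 1364 and 2007 at 1 h, against 1695 and 2138 at 0 h. Both experiments were slightly lower at 1 h, by 0.31 and 0.09 on the log2 scale, and the arrays of the 2 times overlapped. The fitted change was -0.20 with an interval of -1.91 to 1.51, and its width comes from a residual spread that all times share. Without both 24 h arrays the Fos change at 1 h was -0.20 ± 0.31 (SE). Egr1, a zinc finger factor usually induced beside Fos, was at 1211 and 1280.0 at 1 h, against 941.2 and 1104 at 0 h, a change of 0.28 with an interval of -0.99 to 1.55. The 1 h signals of Egr1 were above the 0 h signals in both experiments, and the change was within the error of the fit.

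Junb, a JUN subunit with weaker activity than Jun in many settings, was at 2364 and 2052 at 1 h, against 1569 and 1443 at 0 h. Both 1 h arrays were above both 0 h arrays, with ratios of 0.59 and 0.50 on the log2 scale and a fitted change of 0.55 ± 0.25 (SE, limma adjusted p = 1). The main Egr2 probe set was at 10225 and 10049 at 1 h, against 8059 and 8302 at 0 h, a change of 0.31 ± 0.21 (SE), and the other Egr2 probe set changed by 0.43. Egr2 was already among the readily measured signals of unstimulated cells, and its 1 h arrays did not overlap with those of 0 h. Atf3, an ATF family factor that restrains Toll-like receptor responses in mouse macrophages, was at 7779 and 7554 at 1 h, against 8072 and 7646 at 0 h. The Atf3 change of -0.04 had a 95% interval of -0.38 to 0.31, among the narrowest of the 10 genes.

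None of the remaining factors was called at 1 h. The main Jun probe set changed by 0.36 (interval -0.23 to 0.95), with ratios of 0.62 in experiment 1 and 0.10 in experiment 2, and its other probe set changed by 0.09. The main Fosl2 probe set changed by 0.41 and the other by 0.23, while Jund changed by -0.13. The Fosb probe set had signals of 10.18 and 108.8 at 1 h, against 6.72 and 9.40 at 0 h. Fosb was higher at 1 h in experiment 2 by far more than in experiment 1, and the experiments differed in direction at 3, 6 and 12 h. At 24 h Fosb was at 75.18 and 73.91, above 0 h in both experiments by 2.00 and 1.82 on the log2 scale, in a probe set too dim to be tested.

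**Figure D2:**
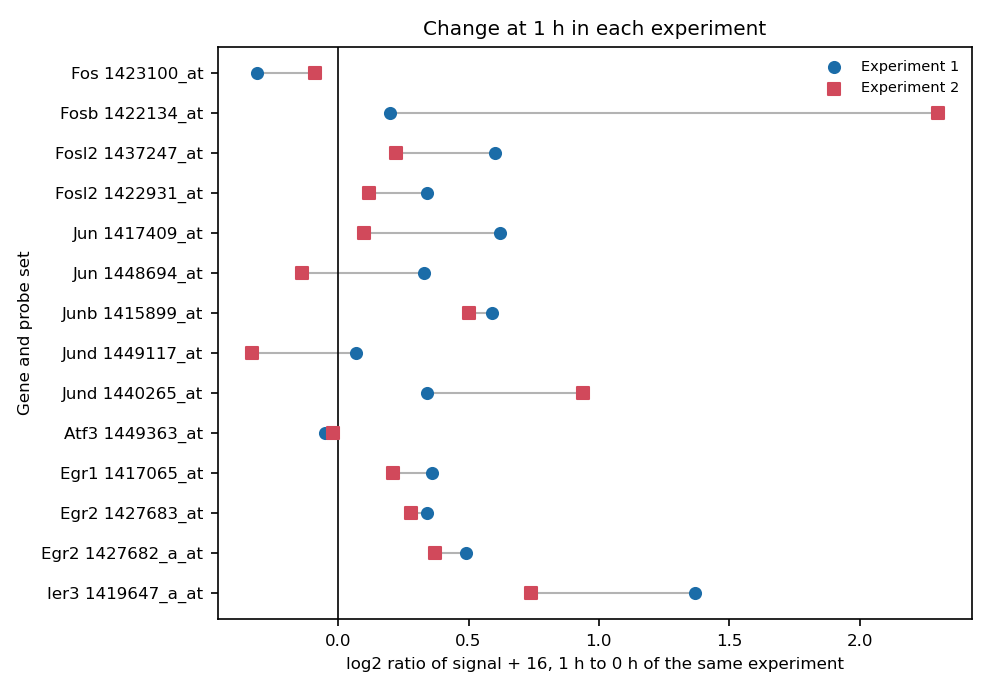
Log2 ratio of signal + 16 at 1 h to 0 h of the same experiment (horizontal axis) for each of the 14 probe sets, with 1 point per experiment and a line joining the pair. Ier3 lies to the right in both experiments (1.37 and 0.74), Junb and Egr2 lie above 0 in both, Fos and Atf3 lie at or below 0, and the wide Fosb pair (0.20 and 2.30) belongs to a probe set that was not tested.

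Over the 12 tested probe sets, 0 were called higher and 0 lower at 1 h, against 0.0533% of all tested probe sets called higher and 0% called lower. At an unadjusted p under 0.05, 1 member (Ier3) was higher and 0 were lower. Fitted changes were above 0 for 9 of the 12, with a median of 0.30, while 46.7% of all tested probe sets were above 0, with a median of -0.02. The array as a whole gave few calls at this time, and the 1 h log2 ratios of the 2 experiments correlated at 0.05 across tested probe sets, against 0.54 at 3 h and 0.76 at 12 h. Probe sets are not independent replicates, and these values are a description.

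By 3 h most of these signals were near or below their 1 h values. Of the 12 probe sets 0 were called higher and 0 lower at 3 h against 0 h, where 1.01% and 0.0444% of all tested probe sets were called in those directions. At an unadjusted p under 0.05, 2 were higher and 0 lower. Set against 1 h, the 3 h signal was lower for 9 of the 12, with a median change of -0.18, against -0.05 over all tested probe sets. None was called in that comparison, where 0.861% of all tested probe sets were called higher and 0.0666% lower, and 1 member was higher and 1 lower at an unadjusted p under 0.05. The pair were Atf3, with a change of 0.58 (adjusted p = 0.226), and an Egr2 probe set, with a change of -0.67 (adjusted p = 0.566, limma). The main Egr2 probe set was at 6522 and 8713 at 3 h, against 10225 and 10049 at 1 h, so both 3 h arrays were below both 1 h arrays. Ier3 was at 3080 and 4443 at 3 h, against 4317 and 5443 at 1 h, lower in each experiment.

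Atf3 gave the steadiest rise. In experiment 1 the Atf3 signal was 8072, 7779, 10458, 12225, 16441 and 18069 from 0 to 24 h. In experiment 2 it was 7646, 7554, 12491, 15133, 20569 and 16836 at the same times. From 3 h on every array was above all 4 arrays of 0 h and 1 h. The fitted changes against 0 h were 0.54 at 3 h (adjusted p = 0.271), 0.79 at 6 h (0.0164), 1.23 at 12 h (0.000431) and 1.15 at 24 h (0.000672), each with an SE of 0.16 in limma. Atf3 thus rose at 6, 12 and 24 h. The 6 h call was lost without any single array of 0 h or 6 h, with adjusted p of 0.0749 to 0.155, and without the experiment term (0.111).

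Junb was called higher only at 12 and 24 h. Its signals in experiment 1 were 1569, 2364, 2388, 3057, 4193 and 2639.7 from 0 to 24 h. In experiment 2 they were 1443, 2052, 1608, 2724, 3132 and 4099. Every array from 1 h on was above both 0 h arrays. The change was 0.93 at 6 h (adjusted p = 0.0592), 1.26 at 12 h (0.00466) and 1.12 at 24 h (0.00867), with an SE of 0.25 in limma. Without the 12 h array of experiment 1 the 12 h adjusted p was 0.0525, which ended the call. With either 0 h array left out the 24 h adjusted p was 0.0607 (experiment 1) and 0.0611 (experiment 2), and it was 0.0605 with only the 4 arrays of 0 h and 24 h in the fit. With the 24 h array of experiment 1 left out the 24 h change was 1.58, and with that of experiment 2 left out it was 0.66 (adjusted p = 0.0198, limma).

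Of the other JUN subunits, Jund, which is often abundant in resting cells, was not called against 0 h at any time. Its main probe set was at 3763, 3953, 3207, 3118, 3437 and 4616 in experiment 1 and at 5465, 4350, 4207, 3739, 4788 and 7636 in experiment 2 from 0 to 24 h. The lowest signal of each experiment was at 6 h and the highest at 24 h. The change was -0.41 at 6 h (adjusted p = 0.201) and 0.39 at 24 h (0.118), and only the test for any change over time passed (adjusted p = 0.041, limma). Without both 24 h arrays that test no longer passed (adjusted p = 0.131, limma). The minor Jund probe set ranged between 1.79 and 90.45 and was not tested. The main Jun probe set was at 2858 and 3353 at 24 h, against 1715 and 2179 at 0 h, both above, with a change of 0.67 that was not called (adjusted p = 0.0863, limma). The other Jun probe set was at 711.9 and 431.2 at 24 h, against 676.5 and 833.9 at 0 h, so the probe sets of Jun disagree in direction at this time.

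Ier3 was above its 0 h signal in each experiment from 1 h through 12 h, and close to or below it at 24 h. Its signals were 1657, 4317, 3080, 3343, 3326 and 1806 in experiment 1 and 3247, 5443, 4443, 4493, 6519 and 1852 in experiment 2 from 0 to 24 h. The fitted change was 0.67 at 3 h (adjusted p = 0.42), 0.74 at 6 h (0.0942), 1.00 at 12 h (0.00927) and -0.34 at 24 h (0.302, limma). Ier3 therefore rose at 12 h. That call was lost when the 0 h array of experiment 1 was left out (adjusted p = 0.107), when the 12 h array of experiment 2 was (0.101), and in the fit that had no experiment term (0.126).

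Fosl2, a FOS family subunit without the strong activation domain of Fos, was the only member called lower. Its main probe set was at 1708, 2604, 1659.8, 1289.5, 1029.6 and 793.4 in experiment 1 and at 2946, 3426, 2212, 1920.3, 877.2 and 253.5 in experiment 2 from 0 to 24 h. In both experiments the highest signal was at 1 h and the signal was lower at each later time than at the time before it. The fitted change was -1.23 at 12 h (adjusted p = 0.0708) and -2.27 ± 0.46 (SE) at 24 h (adjusted p = 0.00527, limma). Without the 0 h array of experiment 2 the 24 h change was -1.84 and its adjusted p 0.0688. With the 24 h array of experiment 1 left out the change was -3.26, and with that of experiment 2 left out it was -1.29 (adjusted p = 0.00458, limma). The other Fosl2 probe set was at 168.1 and 238.5 at 24 h, against 150.1 and 200.9 at 0 h, a change of 0.19 ± 0.25 (SE). The main probe set was designed from an expressed sequence tag and the other from the RefSeq transcript, so the fall of Fosl2 rests on only 1 of its 2 probe sets.

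**Figure D3:**
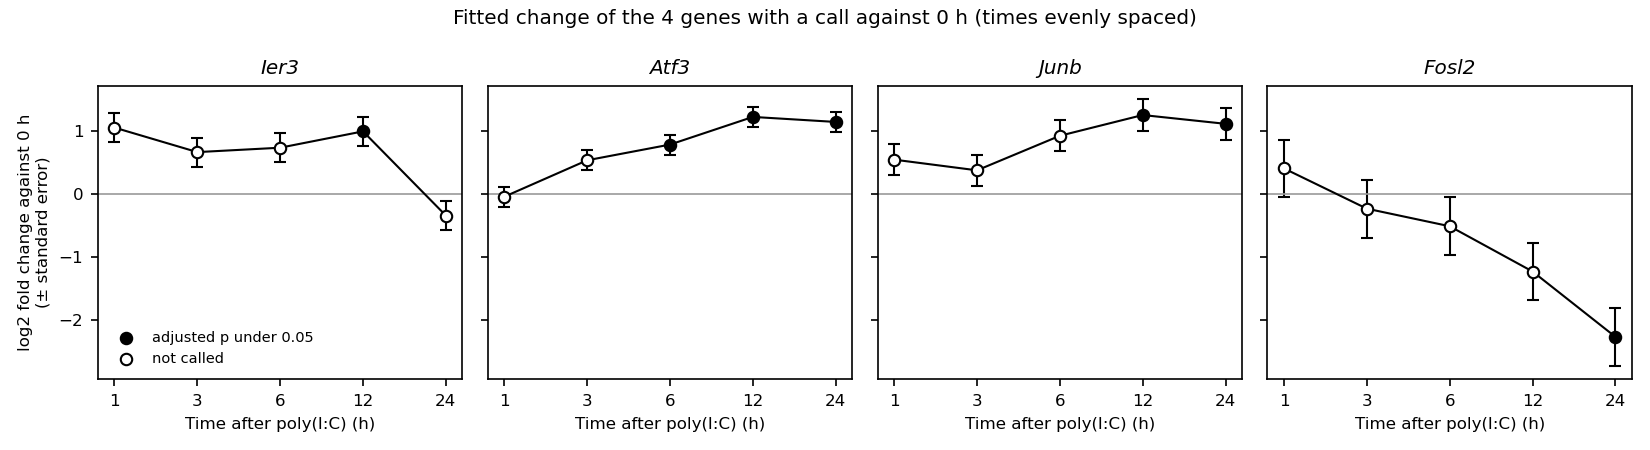
Fitted log2 fold change against 0 h with its SE (vertical axis) at 1, 3, 6, 12 and 24 h (evenly spaced) for the main probe sets of the 4 genes with a call, n = 2 arrays per time. Filled points have an adjusted p under 0.05, which Ier3 reached at 12 h, Atf3 at 6, 12 and 24 h, Junb at 12 and 24 h and Fosl2 at 24 h.

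Counted over time, 1 of the 12 probe sets was called higher and 0 lower at 6 h, where 3.62% and 1.95% of all tested probe sets were called. At 12 h, 3 were higher and 0 lower, against 9.32% and 18.7%. At 24 h, 2 were higher and 1 lower, against 9.23% and 17.5%. The test for any change over time passed for 5 of the 12 (Atf3, Ier3, Fosl2, Junb and Jund), where 28.7% of all tested probe sets passed. The members' median change was 0.40 at 6 h, 0.32 at 12 h and 0.08 at 24 h, against -0.16, -0.23 and -0.19 over all tested probe sets. These comparisons share the 0 h arrays. Without both 24 h arrays, a setting added after the data were seen, 3 members were higher at 6 h (Junb, Atf3 and Ier3) and 3 were higher and 1 lower (Fosl2) at 12 h. In that fit the calls over all 22519 tested probe sets also grew, to 1555 higher and 2180 lower at 6 h, then 2887 higher and 6430 lower at 12 h.

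The 2 experiments went opposite ways at 12 and 24 h for Fos and Egr1. In experiment 1 the Fos signal was 1695, 1364, 1773, 3187, 3821 and 7161 from 0 to 24 h. In experiment 2 it was 2138, 2007, 2544, 3070.5, 1878 and 665.2. At 6 h both experiments were above their own 0 h value, by 0.90 and 0.52 on the log2 scale, and at 24 h the ratio was 2.07 in experiment 1 and -1.66 in experiment 2. The fitted 24 h change was 0.20 ± 0.77 (SE, adjusted p = 0.876, limma). The gap of 3.73 between the experiments at 24 h was matched or passed by only 0.138% of tested probe sets. Without the 24 h array of experiment 2 the Fos change at 24 h was 1.94 (adjusted p = 0.00487), and without that of experiment 1 it was -1.53 (adjusted p = 0.0108, limma), so the direction rests on which array is kept.

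Egr1 split in the same direction at 12 and 24 h. Earlier, experiment 2 was the higher, with log2 ratios of -0.14 (experiment 1) and 0.42 (experiment 2) at 3 h. At 6 h the Egr1 ratios were 0.32 and 1.13. Its signals were 941.2, 1211, 852.3, 1179, 1728 and 2001 in experiment 1 and 1104, 1280.0, 1485, 2435, 1021 and 493.5 in experiment 2 from 0 to 24 h. The 24 h ratio was 1.08 in experiment 1 and -1.14 in experiment 2, a gap of 2.21 that 2.67% of tested probe sets matched or passed. The fitted change was 0.72 at 6 h (adjusted p = 0.514) and -0.03 at 24 h (0.976, limma). Egr2, which in mouse also marks alternatively activated macrophages, split less, with 24 h signals of 8320.5 and 5778, against 8059 and 8302 at 0 h, and a change of -0.24. Across the 12 arrays, after each experiment's mean was removed, Fos and Egr1 correlated at 0.86 and Egr1 and Egr2 at 0.78. The points share arrays, scaling and the 2 experiments, and the values are a description.

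The split at 24 h was not limited to these genes. The main Fosl2 probe set was below 0 h in both experiments but by unlike amounts (-1.09 and -3.46, a gap of 2.37), Ier3 was at 0.12 and -0.80, and the minor, untested Jund probe set at -1.78 and 1.11. The log2 ratios of the 2 experiments at 24 h differed by a median of 0.81 over the 12 member probe sets and by a median of 0.56 over all tested probe sets, against 0.22 and 0.26 at 1 h. Summed markers also differed at 24 h. The 5 macrophage markers summed to 60406 in experiment 1 and 43603 in experiment 2 at 24 h, against 38412 and 39715 at 0 h. Cd14 differed most, at 15300 in experiment 1 and 5572 in experiment 2 at 24 h. Csf1r, Mertk and Fcgr1 were also higher in experiment 1 at 24 h, and Adgre1 was lower there (2484 against 3740). The 7 neutrophil markers summed to 1737 and 3739 at 24 h, against 2796 and 2602 at 0 h. Most of this was S100a8 (1509 to 3401 per array), while Elane, Mpo, Ngp, Camp and Ltf stayed at or below 123.7. S100a9, also dim, was at 17.9 and 6.3 at 24 h, against 87.1 and 10.0 at 0 h. The higher sum of experiment 2 at 24 h thus came mainly from S100a8. The part of the summed markers in the result was not tested.

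**Figure D4:**
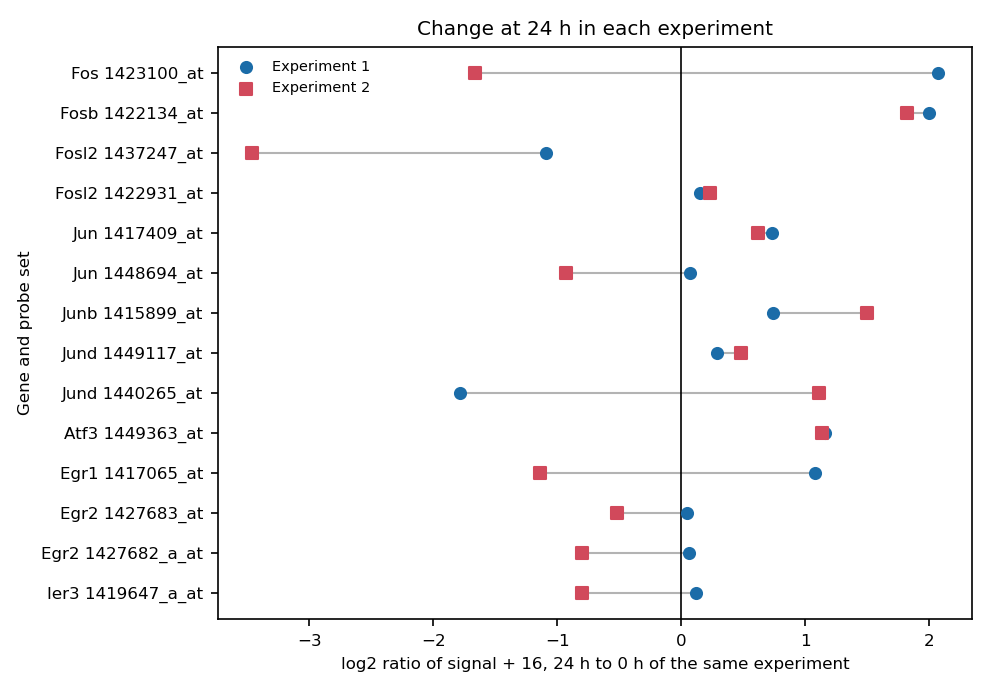
Log2 ratio of signal + 16 at 24 h to 0 h of the same experiment (horizontal axis) for each of the 14 probe sets, with 1 point per experiment and a line joining the pair. Atf3 (1.16 and 1.14) and Junb lie above 0 in both experiments, the main Fosl2 probe set lies below 0 in both, and Fos (2.07 and -1.66) and Egr1 (1.08 and -1.14) lie on opposite sides.

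The cells carried most markers of their label, beside markers of macrophages. Of 8 DC markers, 7 had a mean signal of at least the array-wide median, with summed signals of 69835 to 123596 per array, and Flt3 was the exception. The 5 macrophage markers measured were all above the median, with sums of 38412 to 63406. Csf1r and Cd14 among them are not specific to macrophages in GM-CSF cultures. The others were Adgre1 (2057 to 3740 per array), Mertk (1143 to 6953) and Fcgr1 (1047 to 12369). These markers thus do not tell DC from macrophages in the samples. The highest DC sums were at 12 and 24 h, the times at which Atf3 and Junb were called higher, but the markers did not all follow. Cd74, H2-Ab1, H2-Aa, Ccr7 and Cd86 were higher at 24 h than at 0 h in both experiments. Ciita was lower in both (228.3 and 150.6, against 346.8 and 171.7). Itgax was at 16175.6 and 22647.7, against 18779.5 and 18932.3, and the dim Flt3 also differed in direction between experiments. The part of the DC markers in those results was not tested. Markers of T and NK cells, mast cells with basophils and eosinophils, and erythroid cells had 0 genes at the median, and B cells had 1 of 4 (Pax5). Their sums ranged over 42.8 to 227.5, 75.1 to 205.7, 12.5 to 136.0 and, for B cells, 88.2 to 265.8.

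The genes whose profile over the 12 arrays was most like those of the 3 members with the smallest p for any change were found by Pearson r of log2 signals after each experiment's mean was removed. Most like Atf3 were Slfn4 (0.982), Tmem106a (0.980) and Tent5c (0.978), which were all higher from 3 h on than at 0 h in both experiments. Most like Ier3 were Trim13 (0.928), the cytokine Il1a (0.903) and Rnf19a (0.884). Il1a, like Ier3, was high at 1 h, at 7895 and 10796, against 1499 and 2023 at 0 h, and low at 24 h, at 745.3 and 1021. Most like the main Fosl2 probe set were the initiation factor gene Eif1a (0.987), Ogt (0.986) and Fnta (0.986). All of these r come from 12 arrays that share 2 experiments.

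Genes that act before, with or after AP-1 and EGR factors were counted by list, with 1 probe set per gene and the same fit. Over all 10985 genes, 0.0819% were called higher and 0% lower at 1 h. At 3 h the shares were 1.26% and 0.0546%, and at 6 h they were 4.29% and 2.32%. Of the factors that drive immediate-early transcription, SRF with its ternary complex partners and co-activators, all 6 genes were tested and 0 were called at 1, 3 or 6 h. The 12 h calls were 0 higher and 3 lower, where 10.7% of all genes were higher and 20.6% lower. The 24 h calls were 0 higher and 2 lower, where 11.5% were higher and 17.2% lower. Srf itself was at 196.3 and 129.4 at 24 h, against 628.6 and 669.5 at 0 h, a change of -1.92 (adjusted p = 0.00145, limma). Elk4, a ternary complex partner, changed by -0.90 at 24 h (adjusted p = 0.0045, and 0.291 without the experiment term). Mrtfb, a co-activator, changed by -0.73 at 12 h (adjusted p = 0.0194, limma). That p was 0.19 without the experiment term and 0.0872 with each array centred on its median. The call was also lost without any single array of 0 h or 12 h.

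Among MAP kinase pathway genes upstream of AP-1, 17 of the 22 listed had a probe set used here and 15 were tested. None was called at 1 or 3 h, and 1 was higher at 6 h. The 12 h calls were 2 higher and 5 lower, and those of 24 h were 1 higher and 6 lower. Over all genes, 10.7% were higher and 20.6% lower at 12 h, and 11.5% and 17.2% at 24 h. Map2k1, a kinase that activates ERK, rose at 12 h by 1.18 (adjusted p = 0.00189). Rps6ka3, an RSK kinase, fell at 24 h by 2.19 (adjusted p = 0.000917), and Map3k5, a stress kinase, fell by 1.97 (adjusted p = 0.00235, limma). The list's median change at 24 h was -0.60, against -0.13 over all genes.

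Of the other EGR factors and their NAB co-repressors, 3 of 4 were tested. Only Egr3 was called, as lower at 24 h, where 17.2% of all genes were lower. Egr3 was at 5.1 and 30.2 at 24 h, against 460.9 and 296.5 at 0 h, low in both experiments, with a change of -3.63 ± 0.50 (SE, adjusted p = 0.00073, limma). Nab2 changed by -0.51 (adjusted p = 0.0741) and Nab1 by -0.84 (0.148) at 24 h. At 1 h Egr3 was at 465.5 and 378.6, a change of 0.18 with an adjusted p of 1.

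Of 25 other AP-1 and bZIP factors 23 were tested, and 0 were called at 1 h, 1 higher at 3 h and 2 higher at 6 h. At those times 0.0819%, 1.26% and 4.29% of all genes were higher, and 0%, 0.0546% and 2.32% lower. The 12 h calls were 5 higher and 6 lower, and the 24 h calls 6 higher and 4 lower, where 10.7% and 20.6%, and then 11.5% and 17.2%, of all genes were called. Ddit3, the stress factor CHOP, was at 5722 and 8417 at 24 h, against 546.4 and 924.1 at 0 h, a change of 3.26 ± 0.22 (SE, adjusted p = 6.83e-06, limma). Batf2, an interferon-induced AP-1 partner, rose by 3.20 at 12 h (adjusted p = 0.000168), and Cebpd, a C/EBP factor, fell by 1.98 at 24 h (adjusted p = 0.000264).

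Of 26 other immediate-early genes 24 were tested, with 0 called at 1 h and 3 h, and 4 higher against 1 lower at 6 h. The 12 h calls were 8 higher and 2 lower, and those at 24 h were 7 higher and 2 lower. Over all genes 0.0819% were called higher and 0% lower at 1 h, and 1.26% and 0.0546% at 3 h. At 6 h, 4.29% were higher and 2.32% lower. The 12 h shares were 10.7% higher and 20.6% lower, and the 24 h shares 11.5% higher and 17.2% lower. Their median change was 0.21 at 1 h, against -0.02 over all genes. Csrnp1, an AXIN1-induced nuclear protein, was at 1348 and 988.5 at 1 h, against 426.5 and 396.6 at 0 h, a change of 1.45 that was not called (adjusted p = 0.225), and it rose by 2.93 at 12 h (2.97e-05). Plk2, a polo-like kinase, rose by 1.36 at 12 h (adjusted p = 0.000234). Gadd45a, a growth arrest and stress gene, was at 737.4 and 1108 at 1 h, against 471.9 and 454.1 at 0 h. It was lower at 3 h than at 1 h by a change of -1.69 (adjusted p = 0.031, limma). That p was 0.226 without the experiment term and 0.0722 without the intensity trend. With a single 1 h or 3 h array left out the change ranged over -1.81 to -1.56, and the call was lost each time.

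Of 15 known AP-1 and EGR target genes 12 were tested, and 2 of them, the cytokine genes Il6 and Tnf, were called higher at 1 h, where 0.0819% of all genes were. Il6 was at 2276 and 1014 at 1 h, against 49.9 and 5.2 at 0 h, a change of 5.36 (adjusted p = 0.000939). Tnf was at 11628 and 10178 at 1 h, against 3221 and 2715 at 0 h, a change of 1.87 (adjusted p = 0.0232). The 1 h arrays of both genes lay above those of 0 h. Without the experiment term the adjusted p of each was 1, and the Tnf call was also lost without any single array from 0 to 12 h (adjusted p of 0.0572 to 0.531, limma). Later, 6 targets were higher and 1 lower (12 h), then 3 higher and 2 lower (24 h), where 10.7% and 20.6%, then 11.5% and 17.2%, of all genes were called. Ccnd1, a cell cycle regulator, rose by 1.90 at 12 h (adjusted p = 4.69e-05).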

How the data were processed

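The 10 genes and the gene lists were chosen with earlier results of these data known, so they are not independent of the data. Signal intensities were computed by the authors' core facility with MAS5.0 and deposited on a linear scale, with each array scaled so that its mean without the highest and lowest 2% of signals is 500. Of 45101 probe sets, 64 controls were left out, and 34945 of the other 45037 had 1 gene symbol in the platform annotation, 932 several and 9160 none. Median signals ran between 70.9 and 91.4 per array, and between 19.5% and 23.1% of values were under 16. Images and detection calls were not used here.

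Log2(intensity + 16) of all 12 arrays was modelled on time and experiment in limma 3.58.1 (R 4.3.3), followed by empirical Bayes moderation with an intensity trend (5 residual and 5.24 prior degrees of freedom). Tests covered the 22519 probe sets whose mean reached the median, with Benjamini-Hochberg adjustment at 0.05. The study's methods describe the experiments as run and hybridised apart, and same-experiment arrays deviated together from their time means, with correlations of 0.26 to 0.66 (median 0.57, 15 pairs of times). No 2 arrays were alike beyond a correlation of 0.9801. Tables and figures were made with matplotlib 3.10.9, scipy 1.17.1, pandas 2.3.3 and numpy 2.4.6 in Python 3.11.15.

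All 10 genes are described with every probe set, and the main probe set of a gene is the one with the highest mean signal among those tested. For each list, up to 3 genes with the smallest p for any change were named. As alternatives, the pseudocount, filter, scaling, choice of arrays and main probe set were varied, the experiment term or the trend was dropped, and each array was left out in turn. In simulated data for 1 h against 0 h on 22519 probe sets with 200 changed (5 runs), the fit recovered 63.8% of 4-fold changes but 15.8% of 2-fold changes, with 4.21% false calls. Promoters are from RefSeq on GRCm38.p6, with windows that end at the base before the start.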

Additional observations from a re-analysis of the deposited data

Results flagged for a closer look

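Fos was flagged because the experiments moved in opposite directions at 24 h, each by at least 2-fold, with a log2 ratio to 0 h of 2.07 in experiment 1 and -1.66 in experiment 2. Egr1 was flagged for the same reason, with 1.08 in experiment 1 and -1.14 in experiment 2. The minor Jund probe set, which was too dim to be tested, also split, with -1.78 in experiment 1 and 1.11 in experiment 2. With 1 array per experiment and time, the difference between the experiments was not tested. No group had the 4 arrays needed to look for a single outlying array.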

How the results depend on the processing

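In the simulation of 1 h against 0 h, 15.8% of 2-fold changes were recovered, so a missing call at 1 h does not show that a gene did not change. Counts below are of the 12 member probe sets, and the calls over all tested probe sets under each setting are not given beside them. They show how the counts moved with the setting and are not a result about the members. The 0 calls at 1 h, in either direction, stayed 0 in every setting except the fit with only the 4 arrays of the comparison, where 1 (Ier3) was higher. In that fit 2 were higher at 3 h, 6 higher at 6 h, 1 lower at 12 h, 1 higher at 24 h, and in 3 h against 1 h there were 1 higher and 5 lower. With no replicate block (no term that pairs the arrays of an experiment), 0 were higher at 6 h and 2 changed at any time, and with no intensity trend these counts were 0 and 3. Without both 24 h arrays, 3 were higher at 6 h and 1 lower at 12 h. Leaving out each array in turn gave 0 to 3 higher at 6 h, 0 to 1 lower at 12 h, 0 to 6 lower and 1 to 3 higher at 24 h, and 3 to 9 with any change. At 6 h, 0 remained without any single array of 0 h or 6 h, and 3 were called without either 24 h array, which also gave the 1 lower at 12 h. The 6 lower at 24 h and the 9 came without the 24 h array of experiment 1, the 0 lower without the 0 h array of experiment 2, and the 1 higher without either 0 h array. The 3 with any change came without either 0 h array or the 12 h array of experiment 1. Signs turned at 1 h for 4 genes, none of them called. With single arrays left out, the 1 h change ranged over -0.84 to 0.44 for Fos (0.31 lacking the 0 h array of experiment 2, 0.44 lacking the 1 h array of experiment 1), -0.02 to 0.84 for Fosl2 (-0.02 lacking the 0 h array of experiment 1), -0.30 to 0.04 for Jund (0.04 lacking the 1 h array of experiment 2) and -0.15 to 0.08 for Atf3 (0.08 lacking the 0 h array of experiment 1, 0.06 lacking the 1 h array of experiment 2). Fosl2 at 24 h was 0.19 by its other probe set. Quantile normalisation put the 6 h Atf3 change at 0.69 (adjusted p = 0.0505, limma). The cause of these shifts was not tested. Counts per gene list moved too when single arrays were left out, for example 5 to 11 higher at 12 h among other immediate-early genes and 0 to 5 lower among MAP kinase pathway genes.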

Other observations

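Other genes with a wide split between the experiments at 24 h were looked at after the split of Fos had been seen. Dusp6, which encodes a phosphatase that switches off ERK, had signals of 1124 in experiment 1 and 119.3 in experiment 2 at 24 h, against 818.7 and 1482 at 0 h. Dusp5, another phosphatase gene of the ERK pathway, had signals of 684.9 and 29.1 at 24 h, against 508.1 and 316.6 at 0 h. Both genes were chosen after their values were seen, and the splits were not tested.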
